A study of Mus musculus with 18 samples.

Results

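The primitive streak is the structure at the back of the gastrulating mouse embryo through which epiblast cells pass as they become mesoderm and endoderm. 10 genes that mark it, its WNT ligands or the mesoderm that leaves it were followed here: the T-box factors T (Brachyury), Eomes and Tbx6, the homeobox factors Mixl1, Evx1 and Gsc, the bHLH factor Mesp1, the WNT target Sp5, and the ligands Wnt3 and Wnt3a. They were taken as a named list, chosen with earlier results of these data known, and all 10 were found among the 25239 genes of the raw count matrix. The count filter kept 9 of them, and Mesp1 was left out for too few counts.

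The libraries came from E14Tg2a, a mouse embryonic stem cell line, and from 1 clone derived from it (TET TKO, below TKO) in which the open reading frames of Tet1, Tet2 and Tet3 had been excised step by step with CRISPR/Cas9. Both were cultured in 2i/LIF, turned into epiblast-like cells (EpiLCs) with activin A and FGF, and then aggregated in suspension in GK15 medium, with or without the cytokines BMP4, BMP8a, SCF, LIF and EGF that induce primordial germ cell-like cells (PGCLCs). There were 9 groups of 2 libraries: wild-type (WT) EpiLCs, WT aggregates without cytokines at day 2 and day 6, WT day 6 with cytokines, TKO EpiLCs, and TKO aggregates without and with cytokines at day 2 and day 6. WT day 2 with cytokines was not analysed here. By the study's account the WT day 6 cells with cytokines were sorted as SSEA1+/CD61+ PGCLCs, while the labels name every day 2 and day 6 sample as aggregates. The sort therefore cannot be told apart from genotype or cytokines wherever that group is compared. Genotype likewise cannot be told apart from clone wherever TKO and WT are compared, as the TKO libraries came from 1 clone. The study describes replicates of its RNA-seq time course as biological, and the labels only number them. The p-values measure the spread between replicates, estimated for each gene over all 9 groups together.

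WNT3 from the visceral endoderm and epiblast acts with NODAL to start the streak. WNT signals stabilise beta-catenin, which joins TCF/LEF factors on DNA and switches on T and Sp5, while Eomes and Mixl1 answer mainly to NODAL and activin. Eomes and Gsc mark the anterior streak, Evx1 its posterior end, and T, Wnt3a and Tbx6 the later streak and the paraxial mesoderm. In the same culture system BMP4 and WNT signals reach germ cell genes partly through T. Evx1 and Wnt3a are also used by interneurons and by the dorsal midline of the neural tube, and Eomes by cortical progenitors.

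Each library held 11286050 to 41257861 fragments assigned to genes (median 16305168). A single transcript, the 45S ribosomal RNA precursor Rn45s, took 16.2 to 31.3% of counts in the 8 libraries of cytokine-free aggregates, and its share in the other 10 was 31.7 to 47.6%. Counts span whole genes, so reads outside the excised reading frames still count, and where the Tet reads fell was not examined. In WT, the study describes low Tet1 and Tet2 expression in cultures without cytokines. In TKO against WT, Tet3 was lower in all 4 matched comparisons (log2 fold change −4.23 to −1.73), Tet1 was lower in EpiLCs (−2.82) and on day 6 with cytokines (−4.20), and Tet2 fell on day 6 without (−1.78) and with cytokines (−4.04). In the 2 cytokine-free comparisons Tet1 did not pass the test (−0.30 and −0.12). Tet2 did not pass in EpiLCs (−1.17, adjusted p = 0.141) or on day 2 without cytokines (0.61, adjusted p = 0.301). The summed normalised count of 8 neural markers was 33056 to 37304 in WT day 6 aggregates without cytokines and at most 5450 elsewhere. 6 PGCLC markers summed to 7399 to 9210 in WT day 6 cells with cytokines, 2950 to 3771 in the 8 TKO aggregate libraries and at most 574 in the rest. 4 EpiLC markers were highest in EpiLCs, at 52892 to 57810 in WT and 24303 to 25502 in TKO.

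Levels below are normalised counts, that is counts divided by the DESeq2 size factor of the library, and means are given with their SD (n = 2). Changes are log2 fold changes from edgeR's quasi-likelihood test, and adjusted p is the Benjamini-Hochberg value over the 16582 genes tested. The standard error (SE) was derived as the absolute log2 fold change over the square root of the test statistic F. A gene was called differentially expressed where its adjusted p was under 0.05 and its log2 fold change was above 2 or below −2. In whole aggregates, fewer cells of a type and less RNA per cell cannot be told apart.

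Levels over the 18 libraries ranged from 1.15 to 999.5 for T, 15.4 to 696 for Eomes, 6.60 to 721 for Wnt3 and 0.556 to 144.5 for Gsc, and were narrower for Tbx6 (9.69 to 41.8) and Mixl1 (0 to 30.1). Mesp1 stayed at or under 5 counts in every library. Per kilobase of exon, the highest group mean was that of T in TKO day 2 aggregates with cytokines (232.5 normalised counts per kilobase). Eomes followed in TKO EpiLCs (157), and it reached 110 in sorted WT day 6 PGCLCs and 107 in TKO day 2 aggregates without cytokines. Wnt3a, Wnt3 and Evx1 were highest in WT day 6 aggregates without cytokines (151, 126 and 100). Of these, T (431.8 and 33.2 per kilobase), Wnt3a (0.328 and 302) and Wnt3 (17.2 and 234.5) were each carried by 1 of the 2 libraries. Gsc reached 101 per kilobase in TKO day 6 aggregates with cytokines, while Mixl1 did not exceed 11.3 in any group. Sp5 was highest in WT day 6 (40.2) and day 2 (37.1) aggregates without cytokines, followed by TKO day 2 aggregates without cytokines (34.5). Its WT day 6 mean was also carried by 1 library (2.59 and 77.75 per kilobase).

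**Figure D1:**
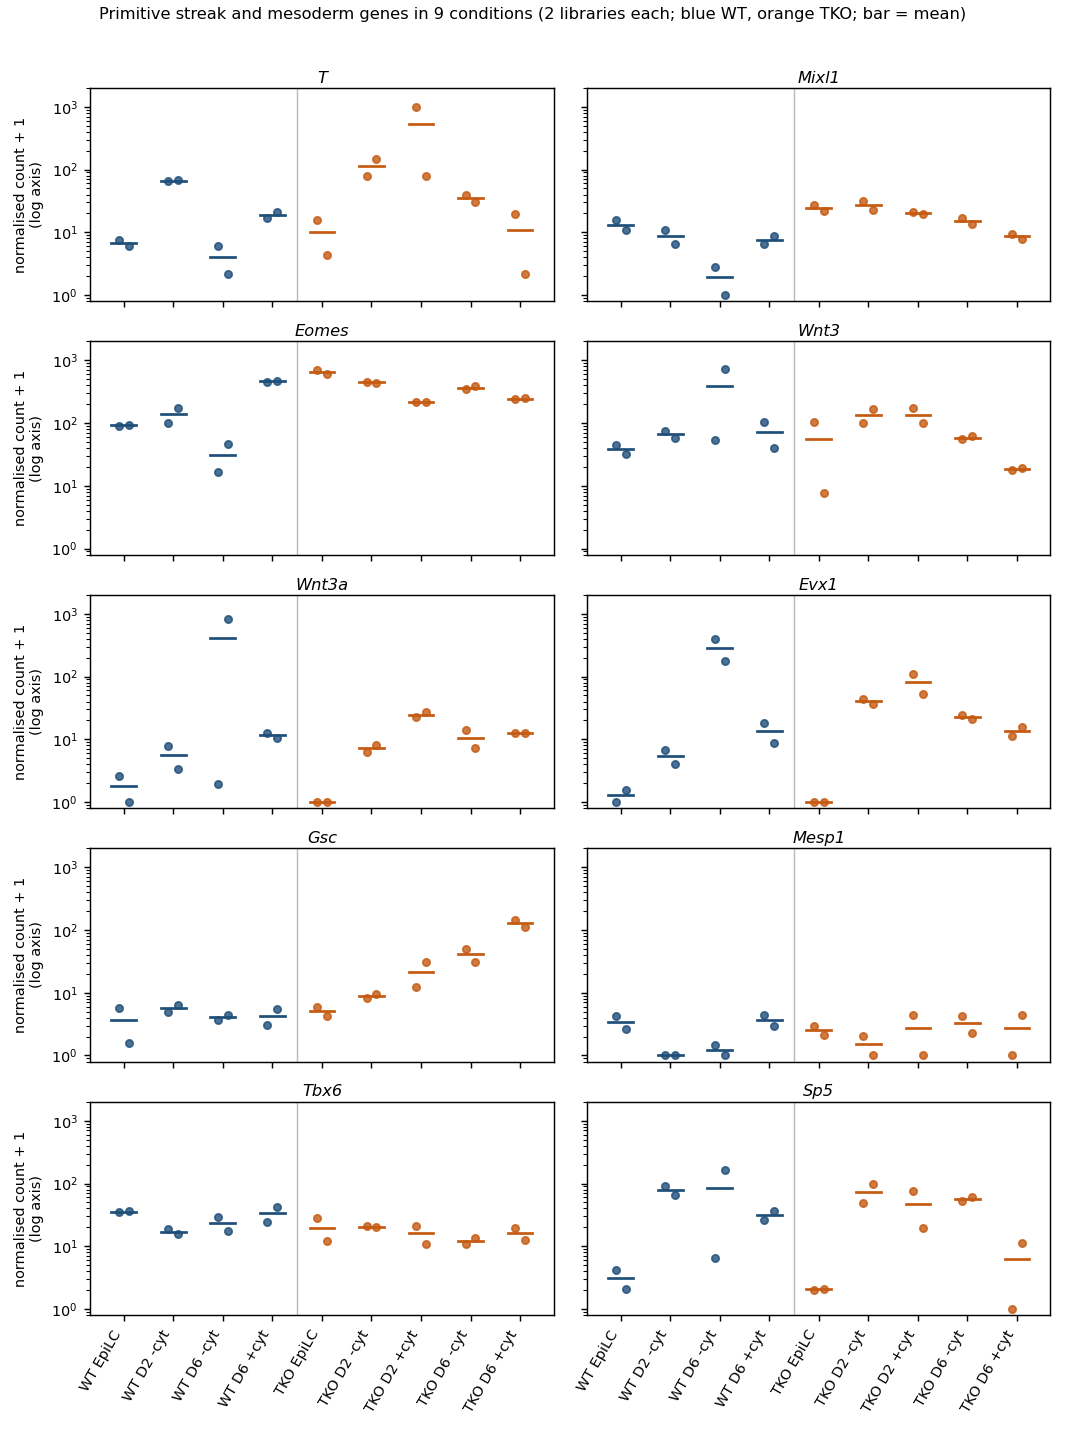
Normalised counts plus 1 (log axis) of the 10 genes in every library, by condition, with WT in blue, TKO in orange and a bar at the mean of the 2 libraries. T and Sp5 sit low in EpiLCs and higher on day 2 of both genotypes, Eomes sits highest in TKO EpiLCs (696 and 606 normalised counts), and Gsc is above 29 only in TKO libraries (29.8 to 144.5).

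The stretches before the start sites of T, Sp5 and Evx1 are shown because these 3 genes rose from EpiLCs to day 2 in both genotypes. Each is the 250 bases upstream of the RefSeq start (GRCm38.p6), written 5′ to 3′ on the strand of the gene, and capitals mark the letters of a TCF/LEF core on either strand (CTTTGAT, its variant CTTTGTT, the variant CTTTGAA, or the remaining variant CTTTGTA). T lies at chr17:8434423-8442496, and the stretch before it is chr17:8434173-8434422 (+ strand). Sp5 lies at chr2:70474923-70477729, with chr2:70474673-70474922 (+ strand) before it. Evx1 lies at chr6:52313498-52318378, with chr6:52313248-52313497 (+ strand) before it.
T: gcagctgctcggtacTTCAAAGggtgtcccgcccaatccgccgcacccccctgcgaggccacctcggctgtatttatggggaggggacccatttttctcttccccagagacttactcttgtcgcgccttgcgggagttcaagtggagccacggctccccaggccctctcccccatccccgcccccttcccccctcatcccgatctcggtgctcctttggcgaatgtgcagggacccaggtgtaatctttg
Sp5: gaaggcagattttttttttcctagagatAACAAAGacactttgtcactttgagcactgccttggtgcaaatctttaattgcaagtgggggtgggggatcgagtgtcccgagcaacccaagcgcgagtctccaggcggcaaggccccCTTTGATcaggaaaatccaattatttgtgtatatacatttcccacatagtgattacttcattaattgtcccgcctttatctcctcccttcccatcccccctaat
Evx1: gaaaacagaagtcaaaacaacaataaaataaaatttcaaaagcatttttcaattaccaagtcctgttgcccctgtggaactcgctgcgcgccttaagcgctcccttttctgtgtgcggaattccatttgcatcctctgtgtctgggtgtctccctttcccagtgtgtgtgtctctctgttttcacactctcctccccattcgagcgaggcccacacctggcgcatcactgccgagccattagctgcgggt

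T held 1 match, CTTTGAA on the opposite strand, 235 to 229 bases before its start. Sp5 held 2, CTTTGAT on the gene strand at 104 to 98 bases and CTTTGTT on the opposite strand at 222 to 216 bases, and no match was found for Evx1. Of the 9 genes with an entry (Mixl1 has none in the table), T, Sp5 and Mesp1 held any of these letters, against 14.8% of 32851 promoters of the same length. The letters of a T-box core site (AGGTGTGA or AGGTGTTA on either strand) were in 0 of the 9 and in 1.51% of all. T had 14 CpG dinucleotides in the stretch, Evx1 10 and Sp5 6, where the quartiles over all promoters were 2, 6 and 16.

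EpiLCs are the starting cells of every aggregate, so the genotypes were first compared there. Of the 9 genes tested, 1 was called and it was higher in TKO (Eomes), where 2.31% of all genes tested were called in either direction and 1.71% were higher. Eomes, a T-box factor of the anterior streak and definitive endoderm, stood at 90.0 and 92.3 normalised counts in WT EpiLCs and at 696 and 606 in TKO EpiLCs. Both TKO libraries lay above both WT libraries, with means of 651 ± 64.0 and 91.1 ± 1.64. The log2 fold change was 2.86 (SE 0.34, adjusted p = 0.000216), or 7.15-fold, and without any 1 of the 4 libraries it stayed between 2.76 and 2.95 with an adjusted p of at most 0.00893.

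Of the other genes in EpiLCs, Mixl1, a homeobox factor of the nascent streak, was at 14.5 and 10.01 in WT and at 25.8 and 20.9 in TKO, without overlap. The change of 1.0 (SE 0.55) had an adjusted p of 0.267. T was low in both genotypes, at 6.43 and 5.0 in WT and 14.9 and 3.30 in TKO, and the groups overlapped. Evx1, Wnt3a and Sp5 stayed at 3 counts or fewer in every EpiLC library, so no fold is given between the genotypes. The ligand Wnt3 differed more between the 2 TKO libraries (104 and 6.60) than between the genotypes. Over the 9 genes the median log2 fold change was 0.64, against 0.04 over all genes tested. 7 endoderm markers summed to 21.1 to 25.7 in WT EpiLCs and to 113 to 178 in TKO EpiLCs, with Cer1 and Afp at 0 in the second TKO library. Their part in the Eomes difference was not tested.

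The first 2 days of aggregation without cytokines follow the streak genes as EpiLCs move from activin A and FGF to GK15 medium. In WT, 3 of the 9 genes were called, all higher on day 2 (T, Evx1 and Sp5), where 11.5% of all genes were called in either direction and 6.8% were higher. T rose from 6.43 and 5.0 normalised counts to 65.3 and 66.0. The day 2 libraries nearly coincided and both exceeded both EpiLC libraries, for a log2 fold change of 3.60 (SE 1.09, adjusted p = 0.0182) or 11.5-fold. Sp5, a transcriptional repressor switched on directly by WNT signalling, went from 2 counts in each EpiLC library to 90.7 and 65.3 normalised counts. The ratio of its summed counts per size factor was 46.3 (95% exact counting interval 17.8 to 172, adjusted p of the edgeR test = 0.00802). Evx1, a homeobox factor of the posterior streak, had 0 and 1 counts in EpiLCs and 6 and 4 counts on day 2, a ratio of 10.5 (counting interval 1.49 to 454, adjusted p in edgeR = 0.0466).

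With only the 4 libraries compared fitted, the log2 fold change of T was 3.60 (adjusted p in edgeR = 0.000271). In the model of all 9 groups, these WT calls depended on single libraries. T was no longer called without replicate 1 or 2 of the WT EpiLCs (adjusted p in edgeR 0.0774 and 0.140) or replicate 1 of WT day 2 (0.0506). Evx1 was lost without any 1 of the 4 libraries (0.0598 to 0.200), and Sp5 without replicate 2 of the WT EpiLCs (0.102). The count of called genes was 0 without replicate 2 of the WT EpiLCs, 1 without replicate 1 of either group and 2 without replicate 2 of day 2. The other genes did not pass the test: Eomes was at 100.4 and 174.8 on day 2 (log2 fold change 0.65, adjusted p = 0.146), Wnt3 at 73.1 and 56.7 (0.88, 0.526), and Mixl1 at 9.75 and 5.44 (−0.61, 0.455).

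In TKO without cytokines the same 3 genes, T, Evx1 and Sp5, were called, again all higher on day 2, where 5.31% of all genes were called in either direction and 4.73% were higher. T was at 14.9 and 3.30 in EpiLCs and at 76.8 and 148 on day 2, without overlap. The log2 fold change was 3.57 (SE 1.02, adjusted p = 0.0253), or 12.4-fold, and the call was lost without any 1 of the 4 libraries (0.0534 to 0.159). With only the 4 libraries compared fitted, the change of T was 3.58 (adjusted p in edgeR = 0.00933). Evx1 had 0 counts in both TKO EpiLC libraries and stood at 42.6 and 36.0 normalised counts on day 2. Against a floor of 3 counts per library it was at least 12.5-fold higher (adjusted p in edgeR = 0.000426), and the call held without each library (at most 0.00588). Sp5 went from 1 count in each EpiLC library to 48.8 and 96.1 normalised counts, a ratio of 67.8 (counting interval 18.4 to 566, adjusted p in edgeR = 0.0161). It was lost without replicate 1 (0.0905) or 2 (0.0975) of the TKO EpiLCs or replicate 2 of TKO day 2 (0.0753), and 1 gene was called without any of these 3 libraries.

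With cytokines, 4 of the 9 genes were called in TKO from EpiLCs to day 2, all higher (T, Evx1, Gsc and Sp5), where 4.52% of all genes were called in either direction and 3.08% were higher. T stood at 999.5 and 77.0 on day 2, both above the EpiLC libraries but far from each other. The log2 fold change was 5.85 (SE 1.05, adjusted p = 0.00177), 59.2-fold on the means, and fell to 3.06 (0.0486) without replicate 1 of the day 2 libraries. Evx1 was at 109.9 and 52.1, at least 25.8-fold higher than the floor in EpiLCs (adjusted p in edgeR = 7.19e-05). Gsc, a homeobox repressor of the organiser and anterior streak, rose from 4.96 and 3.30 to 11.3 and 29.8, a log2 fold change of 2.27 (SE 0.70, adjusted p = 0.0422).

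The Gsc call was lost without either TKO EpiLC library (adjusted p in edgeR 0.112 and 0.192) or without replicate 2 of day 2 (0.320). Sp5 was at 74.8 and 18.6 on day 2, a ratio of 46.0 to its 2 counts in EpiLCs (counting interval 12.3 to 386, adjusted p in edgeR = 0.0330), and was lost without either TKO EpiLC library (0.152 and 0.153) or replicate 1 of day 2 (0.236). Without either TKO EpiLC library 2 genes were called. Eomes moved the other way, from 696 and 606 to 215 and 212, with a log2 fold change of −1.60 (SE 0.32, adjusted p = 0.00375) that was short of the fold limit.

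**Figure D2:**
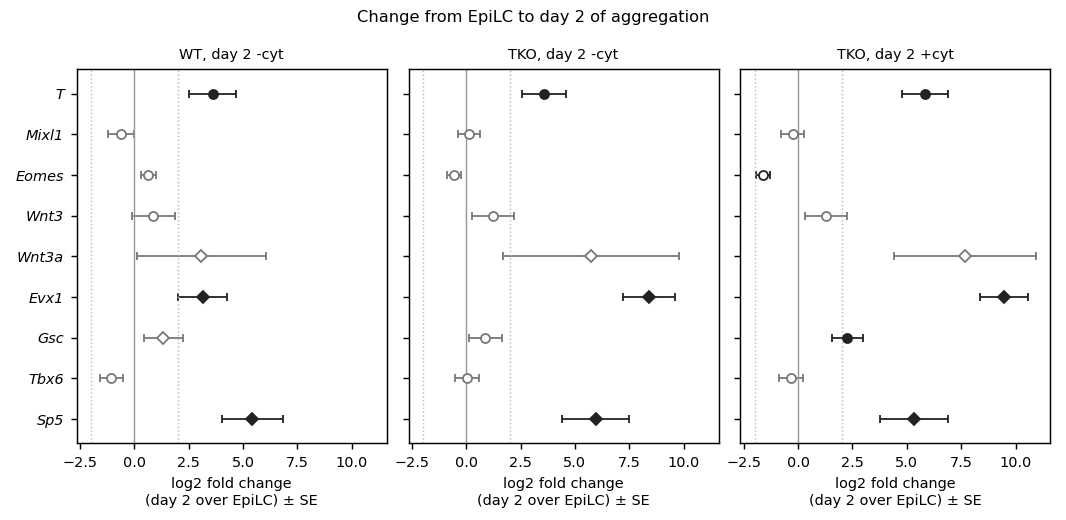
Log2 fold change from EpiLCs to day 2 ± SE for WT without cytokines, TKO without cytokines and TKO with cytokines. Filled points are called genes, open points in black passed the adjusted p alone, grey points did not pass, and diamonds mark genes with 3 counts or fewer in each EpiLC library, whose fitted values depend on the prior count. T sits at 3.60, 3.57 and 5.85, and Eomes is below 0 in TKO.

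Whether these first 2 days differed between genotypes was tested as an interaction, and 0 of the 9 genes were called, where 6.4% of all genes were. At an unadjusted p under 0.05 there was 1, Eomes, with a difference of −1.21 (SE 0.46, adjusted p = 0.101), TKO minus WT. For T the difference was −0.04 (SE 1.14, adjusted p = 1), an SE too wide to read as equal change. The median difference over the 9 genes was 0.51, against −0.03 over all genes tested. DESeq2 also called 0.

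On day 2 without cytokines, TKO and WT aggregates were compared directly. 1 gene of 9 was called and it was higher in TKO (Evx1), where 12.5% of all genes were called in either direction and 9.43% were higher, and 2 more passed the adjusted p with a smaller change. Evx1 was at 5.85 and 3.11 in WT and at 42.6 and 36.0 in TKO, without overlap, an 8.78-fold difference (log2 fold change 3.10, SE 0.64, adjusted p = 0.00204). With 1 library left out the log2 fold change stayed between 2.69 and 3.56 and the adjusted p at most 0.0373. The antisense gene Evx1os, which overlaps 73 exon bases of Evx1, was at 28.0 and 18.02 in TKO and at 0 in both WT libraries, and its part in the difference was not tested. Eomes was at 100.4 and 174.8 in WT and 457 and 432.5 in TKO, higher by 1.65 (SE 0.32, adjusted p = 0.00133), or 3.23-fold. Mixl1 was at 9.75 and 5.44 in WT and 30.1 and 21.6 in TKO, higher by 1.75 (SE 0.56, adjusted p = 0.0269), but this was lost without any 1 of the 4 libraries (0.0540 to 0.214). Without replicate 2 of WT day 2 the genes called were 2.

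T, at 65.3 and 66.0 in WT and 76.8 and 148 in TKO, did not pass the test on day 2 (0.73, SE 0.84, adjusted p = 0.530), and Sp5 overlapped between the genotypes (−0.14, adjusted p = 0.926). The 7 endoderm markers summed to 69.1 to 86.8 in WT and 234 to 294 in TKO on that day, and the 6 PGCLC markers to 215 to 228 and 2950 to 3532. Their part in the differences was not tested.

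Cytokines were added to TKO aggregates only among the day 2 libraries, and 0 of the 9 genes were called for them, where 1.58% of all genes were. At an unadjusted p under 0.05 there were 2, T and Eomes. T was at 999.5 and 77.0 with cytokines and at 76.8 and 148 without, so the groups overlapped (log2 fold change 2.28, SE 0.84, adjusted p = 0.119). A single library set the direction: the log2 fold change was −0.51 (adjusted p in edgeR = 0.811) without replicate 1 of the libraries with cytokines and 3.17 (0.0395) without replicate 2. Eomes was lower in both libraries with cytokines (215 and 212) than in those without (457 and 432.5), a difference of −1.04 (SE 0.32) at an adjusted p of 0.0727 that passed under scaling by library size (0.00907) and in DESeq2 (0.0188). DESeq2 called 0 genes at the fold limit.

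From day 2 to day 6 without cytokines WT aggregates turned to neural gene expression, as the marker sums above show. 6 of the 9 genes were called, 3 higher (Wnt3, Wnt3a and Evx1) and 3 lower (T, Mixl1 and Eomes), where 14.5% of all genes were called. T fell from 65.3 and 66.0 to 4.99 and 1.158 (log2 fold change −4.16, SE 1.09, adjusted p = 0.00693). Eomes fell from 100.4 and 174.8 to 15.4 and 45.2 (−2.37, SE 0.37, adjusted p = 0.000133), and Mixl1 from 9.75 and 5.44 to 1.81 and 0 (−2.55, SE 0.74, adjusted p = 0.0123). For each of these 3 both day 6 libraries were below both day 2 libraries.

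Evx1 rose from 5.85 and 3.11 to 402 and 175, 64.4-fold, with no overlap (log2 fold change 5.97, SE 0.64, adjusted p = 7.28e-06). Its antisense partner Evx1os shares 73 of its exon bases, and counting used no strand, so reads in that stretch cannot be told apart. Evx1os was itself at 447 and 184 in these libraries, 28.0 and 18.02 in TKO day 2 aggregates without cytokines and at most 13.7 elsewhere. Eomes likewise shares 118 exon bases with the antisense gene Gm33460, which is no gene of the count table.

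Wnt3 and Wnt3a, which encode WNT ligands of the streak and neural tube, were set by 1 library. Wnt3 was at 73.1 and 56.7 on day 2 and at 53.0 and 721 on day 6, and Wnt3a was at 6.82 and 2.33 on day 2 and at 0.907 and 835 on day 6. The day 6 libraries lay on either side of the day 2 libraries, so the groups overlapped. The log2 fold changes were 2.52 (SE 0.96, adjusted p = 0.0489) for Wnt3 and 6.48 (SE 1.69, adjusted p = 0.00719) for Wnt3a, and without replicate 2 of WT day 6 they were −0.34 (0.763) and −2.20 (0.129). Sp5 was split in the same way, at 5.44 and 163: its change was 0.03 (SE 0.96, adjusted p = 0.995) with both libraries and −3.87 (0.00210) without replicate 2. In replicate 2, Wnt1 (976 against 4.99), Wnt8b (240 against 15.9) and Axin2 (3077 against 583) were also higher, while in replicate 1 Wnt7a (765 against 149), Wnt5a (820 against 307), Sp8 (1480 against 196) and Evx1 were. These 2 libraries differed more from each other than any other pair (chi-square per degree of freedom 160.2, against 10.5 to 57.4). The count of called genes was 3 without replicate 2 of WT day 2, and 2 when only the 4 libraries compared were fitted.

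**Figure D3:**
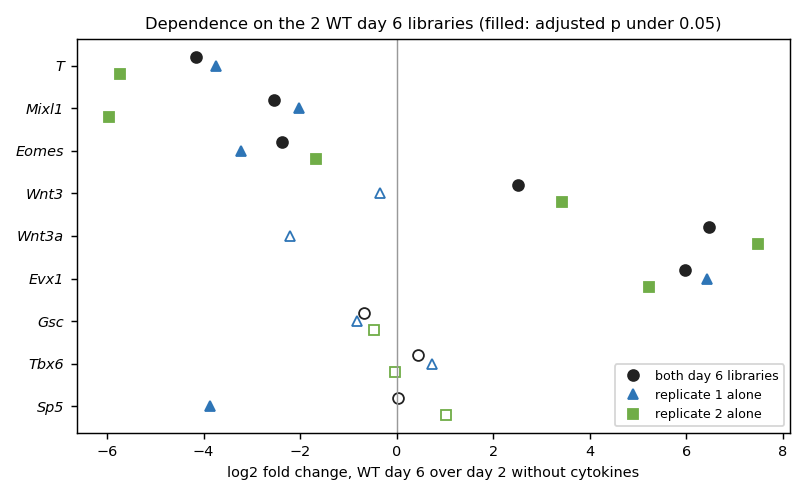
Log2 fold change of WT aggregates without cytokines, day 6 over day 2, with both day 6 libraries (black circles), replicate 1 alone (blue triangles) and replicate 2 alone (green squares); filled symbols have an adjusted p under 0.05. T, Mixl1, Eomes and Evx1 keep their direction with either library, while Wnt3, Wnt3a and Sp5 change sign. The replicate 2 values of T, Mixl1 and Gsc and the replicate 1 value of Wnt3a rest on 3 counts or fewer.

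Sorted WT day 6 PGCLCs were then set against the EpiLCs they came from. 3 of the 9 genes were called, all higher in PGCLCs (Eomes, Evx1 and Sp5), where 11.5% of all genes were called in either direction and 7.58% were higher. Eomes rose from 90.0 and 92.3 to 457.5 and 460, 5.04-fold, with no overlap (log2 fold change 2.37, SE 0.34, adjusted p = 7.51e-05). Evx1 was at 17.4 and 7.72 in PGCLCs, 29.9 times its single count in EpiLCs (counting interval 5.05 to 1214, adjusted p in edgeR = 0.00195). Sp5, at 25.03 and 35.4, had a ratio of 18.4 (counting interval 6.95 to 69.0, adjusted p in edgeR = 0.0345), and it was lost without any 1 of the 4 libraries (0.0572 to 0.244). T was at 16.0 and 19.9 and did not pass (1.73, SE 1.13, adjusted p = 0.238).

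Against WT day 6 aggregates without cytokines, 5 of the 9 genes were called in the PGCLCs, 2 higher (Eomes and Mixl1) and 3 lower (Wnt3, Wnt3a and Evx1), where 26.7% of all genes were called. Eomes was at 457.5 and 460 against 15.4 and 45.2, 15.1-fold higher (log2 fold change 4.09, SE 0.37, adjusted p = 2.74e-07). Mixl1 was at 5.56 and 7.72 against 1.81 and 0 (2.38, SE 0.73, adjusted p = 0.0108). Both differences were without overlap, and Mixl1 had 4 and 0 counts in the cytokine-free aggregates.

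Evx1 was lower by 4.48 on the log2 scale (SE 0.56, adjusted p = 9.80e-06). Wnt3 (−2.39, adjusted p = 0.0418) and Wnt3a (−5.22, adjusted p = 0.00847) overlapped between the groups, and without replicate 2 of the cytokine-free group they were 0.48 (0.634) and 3.46 (0.0102). The count of called genes was 2 with PGCLC replicate 2 left out, 3 with PGCLC replicate 1 left out, 6 and 4 with replicate 1 and 2 of the cytokine-free group left out, and 2 with only the 4 libraries compared.

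In the day 6 aggregates without cytokines, 7 of the 9 genes were called between TKO and WT, 4 higher in TKO (T, Mixl1, Eomes and Gsc) and 3 lower (Wnt3, Wnt3a and Evx1), where 23.8% of all genes were called. Eomes was at 350 and 384 in TKO and 15.4 and 45.2 in WT, 12.1-fold higher (log2 fold change 3.74, SE 0.37, adjusted p = 9.05e-07). Gsc was at 49.5 and 30.3 in TKO and 2.72 and 3.47 in WT, 12.9-fold higher (3.71, SE 0.68, adjusted p = 0.000311). Mixl1 was at 16.2 and 12.6 against 1.81 and 0 (3.46, SE 0.71, adjusted p = 0.000764). In all 3 the TKO libraries lay above the WT libraries, and the calls held without each library in turn.

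T was at 38.8 and 29.0 in TKO and 4.99 and 1.158 in WT, without overlap (3.19, SE 1.13, adjusted p = 0.0254), but was lost without replicate 1 (0.0614) or 2 (0.0753) of WT or replicate 1 of TKO (0.0906). Evx1 was at 23.7 and 20.2 in TKO and 402 and 175 in WT, lower by 3.69 on the log2 scale (SE 0.55, adjusted p = 6.10e-05). Wnt3 (−2.71, adjusted p = 0.0286) and Wnt3a (−5.38, adjusted p = 0.00981) overlapped between the genotypes, and without replicate 2 of WT they were 0.15 (0.888) and 3.30 (0.0171). Without replicate 1 of TKO 4 genes were called. The 8 neural markers summed to 33056 to 37304 in WT and 1872 to 2470 in TKO, and the 7 endoderm markers to 19.7 to 47.1 and 545 to 725. Their part in these 7 differences was not tested.

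With cytokines on day 6, 1 of the 9 genes was called between TKO aggregates and sorted WT PGCLCs, and it was higher in TKO (Gsc), where 5.57% of all genes were called in either direction and 4.58% were higher. Gsc was at 144.5 and 112.5 in TKO and 2.09 and 4.50 in WT. Both TKO libraries were far above both WT libraries, 39.0-fold on the means (log2 fold change 5.22, SE 0.67, adjusted p = 0.000126), and the call held under every alternative, from 4.79 to 5.85 with 1 library left out. The endoderm markers summed to 682 to 854 in TKO and 176 to 236 in WT, and their part was not tested. Eomes was at 238.5 and 248 in TKO and 457.5 and 460 in WT (−0.92, SE 0.32, adjusted p = 0.0555). T (18.5 and 1.15 against 16.0 and 19.9) and Evx1 (10.1 and 14.9 against 17.4 and 7.72) overlapped.

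**Figure D4:**
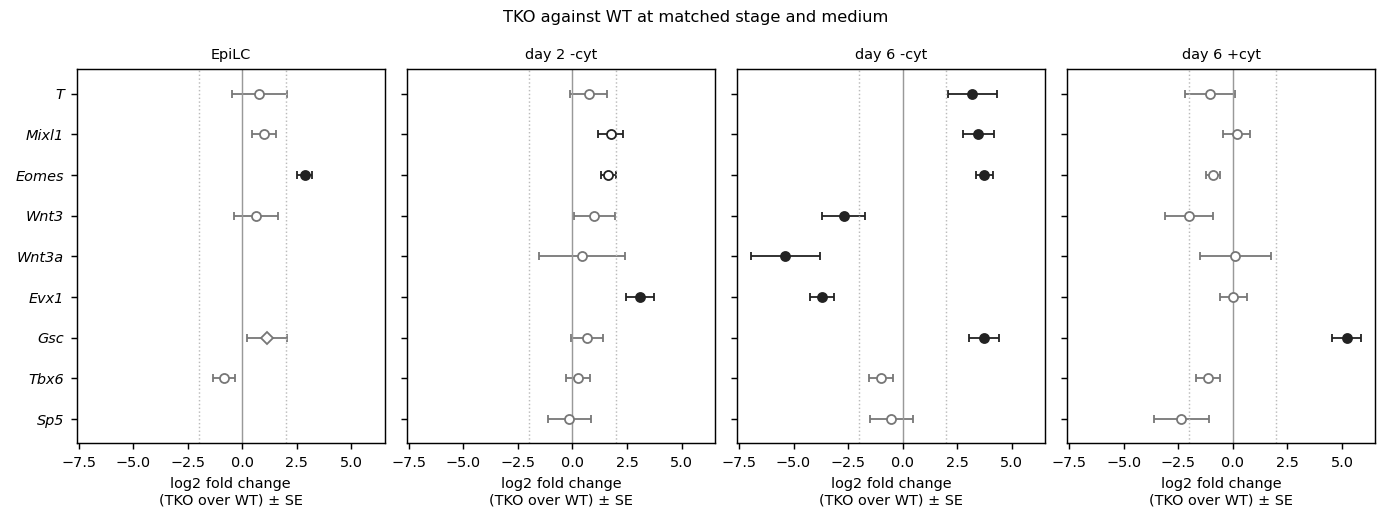
Log2 fold change ± SE of TKO over WT in EpiLCs, on day 2 and day 6 without cytokines, and on day 6 with cytokines. Filled points are called genes, open points in black passed the adjusted p alone, grey points did not pass, the diamond marks Gsc with 3 counts or fewer in each WT EpiLC library, and genes at or under 3 counts in both groups are not drawn. Eomes sits right of 0 in the first 3 comparisons and Gsc at 3.71 and 5.22 in the day 6 comparisons.

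Within TKO, day 2 and day 6 were compared without and with cytokines. Without cytokines 0 of the 9 genes were called, where 0.338% of all genes were. The 1 gene at an unadjusted p under 0.05 was Gsc, at 7.26 and 8.41 on day 2 and 49.5 and 30.3 on day 6 (2.35, SE 0.63, adjusted p = 0.155). DESeq2 called 0. With cytokines 3 were called, 1 higher (Gsc) and 2 lower (T and Evx1), where 2.62% of all genes were called. Gsc rose from 11.3 and 29.8 to 144.5 and 112.5, 6.25-fold (2.65, SE 0.58, adjusted p = 0.0133).

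T fell from 999.5 and 77.0 to 18.5 and 1.15 (−5.92, SE 1.09, adjusted p = 0.00473), and Evx1 from 109.9 and 52.1 to 10.1 and 14.9 (−2.66, SE 0.58, adjusted p = 0.0141). The change of T was −3.10 (adjusted p in edgeR 0.135) without replicate 1 of day 2, −4.85 (0.0718) without replicate 2 of day 6 and −8.74 (0.0166) without replicate 1 of day 6. For all 3 genes the days did not overlap, but 0 were called without replicate 1 of day 2 or without replicate 2 of day 6, and 1 without replicate 1 of day 6. Also lower from day 2 to day 6 with cytokines, at an unadjusted p under 0.05 alone, were Mixl1, Wnt3 and Sp5. Their log2 fold changes were −1.35 (adjusted p = 0.212), −2.93 (0.138) and −2.98 (0.185). On day 6 the cytokines themselves gave 0 called genes of 9, where 1.86% of all genes were called. At an unadjusted p under 0.05 were Gsc (1.69, SE 0.55, adjusted p = 0.0818) and Sp5 (−3.23, SE 1.25, adjusted p = 0.141), with Sp5 at 0 and 10.3 with cytokines and 51.7 and 60.6 without. DESeq2 called 1 gene, Sp5.

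Across the TKO groups the mean of Gsc was 4.13 ± 1.18 in EpiLCs, 7.84 ± 0.810 and 20.6 ± 13.1 on day 2 without and with cytokines, and 39.9 ± 13.6 and 128.5 ± 22.6 on day 6. The libraries of these 5 groups did not overlap, although the higher day 2 library with cytokines (29.8) lay just under the lower day 6 library without them (30.3). In the 4 WT groups Gsc stayed between 0.556 and 5.44. Eomes ran in the other order in TKO without cytokines, from 651 ± 64.0 in EpiLCs to 445 ± 17.1 on day 2 and 367 ± 23.8 on day 6, without overlap, and neither step passed the test (−0.56, adjusted p = 0.219, and −0.27, adjusted p = 0.898).

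Tbx6 and Mesp1 act in early mesoderm. Tbx6 gave no called comparison, and Mesp1 was not tested. Tbx6, needed for paraxial mesoderm, had its highest mean in WT EpiLCs (34.7 ± 1.30) and its lowest in TKO day 6 aggregates without cytokines (11.2 ± 2.07). Groups next to each other in the order of their means overlapped. WT EpiLCs (33.7 and 35.6) and WT day 2 aggregates (17.5 and 14.8) did not, and its smallest adjusted p over the comparisons was 0.134, from WT EpiLCs to day 2 (−1.06, SE 0.53). Mesp1, an early mesoderm and cardiac regulator, had 0 to 5 counts in every library. The filter left it out of the test, so no call could be made. Its ratio of summed counts was 8.21 in WT day 6 PGCLCs over day 6 aggregates without cytokines (counting interval 1.10 to 364). It was 1.29 in these PGCLCs over WT EpiLCs (0.373 to 5.03). Wnt3a stayed at or under 26.1 normalised counts in every library but replicate 2 of WT day 6 without cytokines.

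The 5 genes whose log2 CPM was most like that of T over the 18 libraries, among 11992 genes with a mean normalised count of 50 or more, were Nt5e (Pearson r = 0.879), Pmm2 (0.876), Dusp14 (0.845), Spry2 (0.804) and Arhgap1 (0.803). Nt5e encodes the surface nucleotidase CD73, and Dusp14 and Spry2 encode a dual-specificity phosphatase and a Sprouty inhibitor of receptor tyrosine kinase signalling. Nt5e was at 114 ± 7.87 in WT and 212 ± 84.9 in TKO on day 2 without cytokines, and at 19.6 ± 4.11 and 15.6 ± 1.82 in the EpiLCs. Without the library of highest T the 5 correlations were between 0.758 and 0.859. The points share libraries, depth and culture stage, so these values are a description.

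The rest of the WNT pathway and of the streak and mesoderm programme was followed with lists of genes, each counted by the same call rule. From WT EpiLCs to day 2, 6 of 16 other WNT ligands were higher and 0 lower, with a median log2 fold change of 2.03 against 0.02 over all genes, of which 6.8% were called higher and 4.67% lower in this step. Wnt8a, a ligand of the streak, went from a mean of 15.1 to 1681 (7.07, adjusted p in edgeR = 2.52e-05). Wnt4 rose by 3.20, and Wnt10b (0.278 to 41.1) and Wnt7a (0.278 to 7.59) rose from 1 count in the EpiLCs. The count was 3 without replicate 2 of either group.

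In the same WT step 5 of 19 receptors and effectors were higher and 0 lower (median 0.44), led by Wls, which carries WNT proteins to the cell surface (4.36), Fzd10 (2.68), the acyltransferase Porcn (2.61) and Fzd1 (2.33), and 3 were called without replicate 1 or 2 of the EpiLCs or replicate 1 of day 2. Of 10 feedback and target genes 4 were higher and 0 lower, with Sp8 at 4.68, Rnf43 at 3.47, Axin2 at 3.12 and Lgr5 at 2.49 (median 2.15, or 1.05 with genes at 3 counts or fewer set at their bound or count ratio). Of 9 secreted inhibitors 4 were higher: Frzb (0.556 to 433), Cer1 (0.278 to 13.9), Dkk1 (2.69 to 38.2) and Sfrp1 (3.40), with 2 called without replicate 2 of the EpiLCs. Their median was 3.40, or 0.53 with such genes set that way.

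Of 11 other streak genes 4 were higher and 1 lower from WT EpiLCs to day 2 (median 2.04). Cyp26a1, which degrades retinoic acid, went from 1.61 to 583, Wnt8a rose as above, and the follistatin gene Fst rose by 3.76. Tdgf1, the NODAL co-receptor, fell by 4.91 (adjusted p in edgeR = 4.68e-07). In TKO without cytokines 4 of the 11 were higher over the same days and 0 lower (median 2.24 against 0.04), where 4.73 and 0.579% of all genes were: Cyp26a1 (2.59 to 90.6), Nkx1-2 (0.496 to 19.4), Fst (4.44) and Wnt8a (4.27). With cytokines 4 of 16 ligands were higher in TKO and 0 lower (median 1.18 against 0), where 3.08 and 1.44% of all genes were: Wnt7a (0 to 44.6), Wnt8a (4.30), Wnt7b (3.65) and Wnt4 (3.22), and 2 were called without replicate 1 of day 2.

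From day 2 to day 6 in WT without cytokines, 8 of the 11 other streak genes were lower and 1 higher (median −3.95 against 0.01), where 6.02% of all genes were lower and 8.51% higher. Wnt8a fell by 8.88, Cyp26a1 fell by 7.37 and Lefty2 fell by 5.89, and Lhx1, which is also a gene of spinal interneurons, rose by 6.64. The 16 ligands split into 4 higher and 4 lower (median 1.86), with Wnt7b (7.54) and Wnt7a (5.83) higher and Wnt8a and Wnt6 (19.8 to 0.680) lower. Of the ligands, 5 were called with only the 4 libraries compared. In sorted PGCLCs against these day 6 aggregates, 8 of 16 ligands were lower and 2 higher (median −2.45 against 0.01), where 14% of all genes were lower and 12.7% higher. Among the lower were Wnt7a (0.348 against 457), Wnt1 (0.643 against 491), Wnt8b (−5.28) and Wnt5a (−4.95), with Wnt1 and Wnt8b higher in replicate 2 of the day 6 aggregates, as above.

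Genes of lateral, cardiac and extraembryonic mesoderm formed a list of 12, of which 2, Gata4 and Gata6, are also in the endoderm list. From WT EpiLCs to PGCLCs 9 of 12 were higher and 2 lower (median 3.85, or 3.50 with genes at 3 counts or fewer set at their bound or count ratio, against 0.07), where 7.58% of all genes were higher and 3.96% lower. Hand2 went from 0 to 11.4, Gata6 from 1.08 to 60.02, Kdr from 0.803 to 34.0 and Hand1 from 1.61 to 25.5. Of these, 6 were called without replicate 2 of the EpiLCs and 7 without replicate 2 of the PGCLCs. Against the WT day 6 aggregates 7 were higher in PGCLCs and 2 lower (median 3.62, or 1.68 set that way), where 12.7 and 14% of all genes were, and 4 were called with only the 4 libraries compared.

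Between TKO and WT EpiLCs, 4 of the 12 mesoderm genes were higher and 0 lower (median 2.75, or 2.43 set that way, against 0.04), where 1.71 and 0.597% of all genes were: Hand1 (35.7 against 1.61), Nkx2-5 (11.9 against 0.803), Gata6 (18.2 against 1.08) and Gata4 (4.10, adjusted p in edgeR = 0.00128). A single gene was called without replicate 2 of the WT EpiLCs. Of 10 feedback and target genes 3 were higher, Cdx2 (34.3 against 3.24), Rnf43 (2.71) and Axin2 (2.16), and 0 were called without either WT library.

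On day 2 without cytokines TKO had 4 of the 12 mesoderm genes higher and 1 lower than WT (median 0.97 against 0.00), where 9.43 and 3.08% of all genes were, namely Hand1 (97.9 against 1.46), Bmp4 (4.66), Gata4 (4.59) and Nkx2-5 (3.69), and Etv2 lower. Of the 11 other streak genes 3 were higher and 3 lower (median −1.36): Tdgf1 (5.60) and Lefty2 (2.76), both of the NODAL pathway, were higher, and Nkx1-2 (−4.07) and Wnt8a (−3.39), both of the posterior streak, were lower. Of 9 secreted inhibitors 1 was higher, Dkk3 (2.16), and 4 were lower, among them Frzb (−6.11), Dkk1 (2.24 against 38.2) and Cer1 (1.20 against 13.9). The inhibitors' median was −1.45, and 2 or 3 of the 5 were called without replicate 1 of WT or either TKO library.

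On day 6 without cytokines 7 of the 12 mesoderm genes were higher in TKO and 2 lower (median 5.26, or 2.00 with genes at 3 counts or fewer set at their bound or count ratio, against 0.01), where 14.4% of all genes were higher and 9.46% lower. Gata4 was at 182 against 0.227 and Hand1 at 123 against 0.227, and Etv2 (11.9) and Hand2 (7.91) had 0 counts in WT. The 2 lower genes, named after their values were seen, were Tbx20 (28.0 and 31.6 against 813 and 13.9 in WT) and Tal1 (15.1 and 16.4 against 341 and 10.4). In both the genotypes overlapped, and replicate 1 of WT carried the difference. With only the 4 libraries compared 5 were called. Of 9 paraxial genes 4 were higher, among them Meox1, and 3 lower, the Notch ligands Dll1 (−5.39) and Dll3 (−4.92) and the R-spondin Rspo3 (−4.21), all of which neural tissue also expresses (median 2.04). Meox1 was at 99.1 and 15.1 in TKO, far from each other, and at 0 and 2.32 in WT. Rspo3 was at 15.1 and 6.31 in TKO and at 1.81 and 416 in WT, so the groups overlapped and replicate 2 of WT carried the difference. Of the 11 other streak genes 5 were higher and 2 lower (median 2.42), with Tdgf1 at 9.35, Lefty2 at 9.15, Nodal at 7.76 and Cyp26a1 at 6.31. With cytokines 3 of the 12 mesoderm genes were higher in TKO and 0 lower (median 1.40 against 0.05), where 4.58 and 0.989% of all genes were: Nkx2-5 (3.02), Gata4 (2.72) and Hand1 (2.695). Of 4 axial mesoderm genes tested, 2 were higher in TKO on day 2 without cytokines (Foxj1 and Nog), 1 was lower on day 6 without (Shh) and 1 higher on day 6 with cytokines (Nog), where 9.43, 9.46 and 4.58% of all genes were called in that direction.

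**Figure D5:**
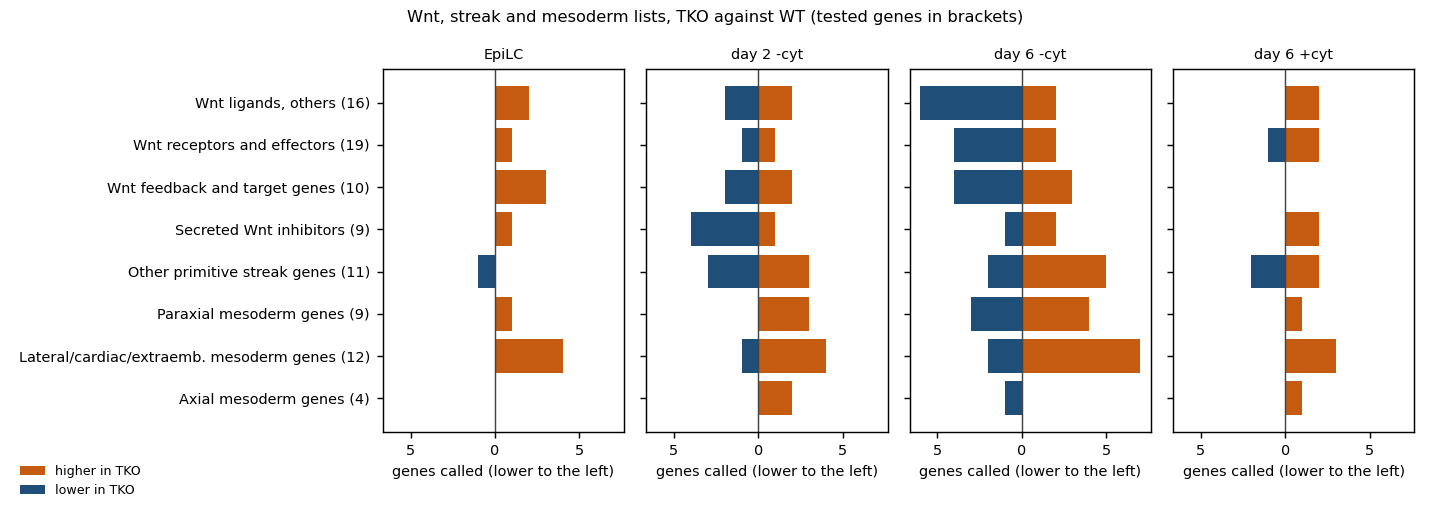
Number of genes called higher (orange, to the right) and lower (blue, to the left) in TKO against WT for 8 lists, in EpiLCs, on day 2 and day 6 without cytokines and on day 6 with cytokines, with the genes tested in brackets. The lateral, cardiac and extraembryonic mesoderm list has 4, 4, 7 and 3 genes higher. The WNT ligands have most genes lower on day 6 without cytokines (6 of 16, where 9.46% of all genes were lower). Of these 6, Wnt1 (4.99 and 976), Wnt8b (15.9 and 240) and Wnt9b (4.53 and 40.5) were far higher in replicate 2 of WT than in replicate 1. Wnt5a, Wnt7a and Wnt7b were not.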

How the data were processed

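RNA was rRNA-depleted and sequenced from 18 libraries, 2 in each of 9 groups named by GEO's labels. The authors deposited raw fragment counts per gene, made with Trim Galore 0.5.0, cutadapt 1.16, STAR 2.7.1a on mm10 and featureCounts (Subread 1.5.2) on refGene exons, per the file headers without a strand option although the kit keeps strand. 33 rows of command lines held no counts and were left out. These lines name part of the libraries only, so the same settings were assumed for all.

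Totals were 11286050 to 41257861 counts per library. Genes passing filterByExpr (16582 of 25239) were fitted with TMM factors in 1 edgeR 4.0.16 quasi-likelihood model of 9 group means (R 4.3.3, limma 3.58.1), and 15 contrasts were tested with Benjamini-Hochberg adjustment. Replicates differed by more than counting noise in every group (chi-square per degree of freedom 10.5 to 160.2), so none was merged. Folds against groups at 0 counts throughout are bounds set at 3 counts per library. Where all libraries had 3 or fewer, ratios of summed counts carry 95% exact binomial intervals, which cover counting error only. Alternatives were RLE (size factors of DESeq2) or library-size scaling, no filter, DESeq2 1.42.0, a replicate block, other fold limits, only the libraries compared and each library left out. The test was tried on simulated counts first. Promoter letters came from RefSeq and gene spans from GRCm38. Named genes were the 10 listed, at most 4 called genes a list by size of change, the 5 most like T and the Tet genes. The genes and lists were chosen with earlier results of these data known, and the alternatives for the lists were added after the data were seen.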

Additional observations from a re-analysis of the deposited data

How the results depend on the processing

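Only the 40 gene results with an adjusted p under 0.05 were tallied. Results outside the tally also reversed, such as T for TKO cytokines on day 2 (2.28, and −0.51 without replicate 1 with cytokines). Of 396 recomputed values for the 40, 324 kept their direction and side of the threshold, 66 kept the direction only and 6 reversed. All 6 were Wnt3 and Wnt3a without replicate 2 of the WT day 6 aggregates without cytokines: −0.34 and −2.20 from WT day 2 to day 6, 0.48 and 3.46 in PGCLCs against day 6, and 0.15 and 3.30 in TKO against WT. Over all libraries left out in turn, Wnt3 and Wnt3a reached 3.43 and 7.49, −3.30 and −6.23, and −3.63 and −6.38 at the other end, each without replicate 1 of that group. The cause was not tested. The number of the 9 genes called ranged, with 1 library left out, over 0 to 2 (WT EpiLCs to day 2), 3 to 5 (WT day 2 to day 6), 2 to 2 (WT EpiLCs to PGCLCs), 2 to 6 (PGCLCs against day 6), 1 to 1, 1 to 2, 4 to 6 and 1 to 1 (TKO against WT in EpiLCs, day 2, and day 6 without and with cytokines), 1 to 2 and 2 to 3 (TKO EpiLCs to day 2 without and with cytokines), 0 to 1 and 0 to 0 (cytokines in TKO, day 2 and day 6), 0 to 0 and 0 to 3 (TKO day 2 to day 6 without and with cytokines) and 0 to 0 (interaction). With only the libraries compared it was 2 for WT day 2 to day 6, 2 for PGCLCs against day 6, 3 for TKO against WT day 6 with cytokines, 1 for TKO cytokines on day 6 and 1 for TKO day 2 to day 6 without cytokines. With a fold limit of 1 or none it was 3 for TKO against WT on day 2. Without the filter it was 1 for TKO cytokines on day 2, 1 on day 6 and 5 for TKO day 2 to day 6 with cytokines, and for TKO cytokines on day 6 it was 1 under library-size scaling and in DESeq2. That scaling moved the median of all genes by up to 0.59 on the log2 scale and reversed none of the 40 gene results tallied.

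No pairing by replicate number was seen over the groups as a whole. The 36 correlations between deviations of same-numbered libraries ran from −0.156 to 0.182 (median 0.0118), 7 of them over 0.1. Pairing confined to some groups was not tested. With the replicate block the number called was 5 of 9 for WT day 2 to day 6 and 3 for TKO EpiLCs to day 2 with cytokines, and equal to the unblocked number in the other 13 comparisons. Groups of 2 libraries and low counts limit these data: T, Sp5, Evx1, Wnt3a, Mixl1 and Gsc had at least 1 group with fewer than 10 counts in each library, and Mesp1 had so in all 9.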
